A study of Mus musculus with 24 samples.

Results

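The collagen chains are the polypeptides that wind around each other into the collagens of the extracellular matrix, and all genes were taken with a mouse symbol made of Col, a number, the letter a and a second number. The rule found 44 of the 78298 gene IDs in the count table. By the class of molecule that each chain builds, 11 were fibrillar, 6 basement membrane, 6 beaded filament, 9 FACIT (collagens that lie on the surface of fibrils) and 12 of other kinds. Their transcripts were counted by RNA sequencing in whole liver tissue from 18 model mice of steatohepatitis, a liver disease with fat storage and inflammation, and from 6 normal control mice, with 1 library per mouse. The labels give no diet, duration, strain, sex or age for either group, and no treatment shared by the groups.

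Fibrillar collagens form the tensile cables of scar tissue, and beaded filaments and FACIT collagens bind those cables to each other and to cells. Basement membrane collagens form sheets under epithelium and endothelium. In liver the fibrillar chains are made mainly by stellate cells and portal fibroblasts, which become myofibroblasts in fibrosis, whereas hepatocytes are a known source of collagen XVIII. The tissue was sequenced in bulk, so more cells of a type and more RNA per cell cannot be told apart.

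Libraries held 32.2 to 58.4 M counts in model mice (median 38.9 M) and 31.6 to 49.5 M in control mice (median 38.0 M). Collagen chains together took 0.102 ± 0.0121% of counts in model livers and 0.0732 ± 0.0105% in control livers (SD, n = 18 and n = 6). The hepatocyte transcript Alb stood at 40820 to 96490 CPM (counts per 1 M, with library sizes scaled by TMM, the trimmed mean of M-values) in model livers and at 86880 to 151300 CPM in control livers, so this marker of liver tissue was abundant in every library. The TMM factors themselves differed between the groups, at 1.06 ± 0.061 in model and 0.843 ± 0.028 in control libraries, so the scaling matters for chains with small differences. A pair of libraries stood apart from their groups. Model mouse 10 lay at -63.4 on the first principal component of the model libraries, with the next mouse at -34.1 and the highest at 48.8. Control mouse 6 had a clock gene index, the mean log2 CPM of Arntl and its partners minus that of the Nr1d, Per and Dbp group, of -3.91. The other control mice lay between -1.20 and 1.04 and the model mice between -3.79 and -2.70, so control mouse 6 lay nearer to the model mice. Apart from that mouse the index followed the group, so fits with the index as a covariate lean on control mouse 6. In those fits the clock genes and the group can hardly be told apart.

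Collagen chains were mostly higher in model livers, led by the chains of the main scar collagens. Of the 44 chains, 30 had enough counts to be tested, of which 17 rose and 4 fell in model livers. Calls come from edgeR (quasi-likelihood F test), run on all genes with Benjamini-Hochberg adjusted p below 0.05 as the threshold. Calls were common in these livers: of 17456 genes tested, 60.0% were called, 31.2% as higher and 28.8% as lower. At least a 2-fold rise was called for 15 of the 30 tested chains, against 16.3% of all genes. The median log2 fold change was 0.99 over the tested chains and 0.01 over all genes tested. For 6 chains no model mouse overlapped with any control mouse in the higher direction and for 0 chains in the lower direction, where 9.66% and 6.03% of all genes did so. A chain high in model livers passed the expression filter more easily, so the counts describe the 30 tested chains and not all 44.

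**Figure D1:**
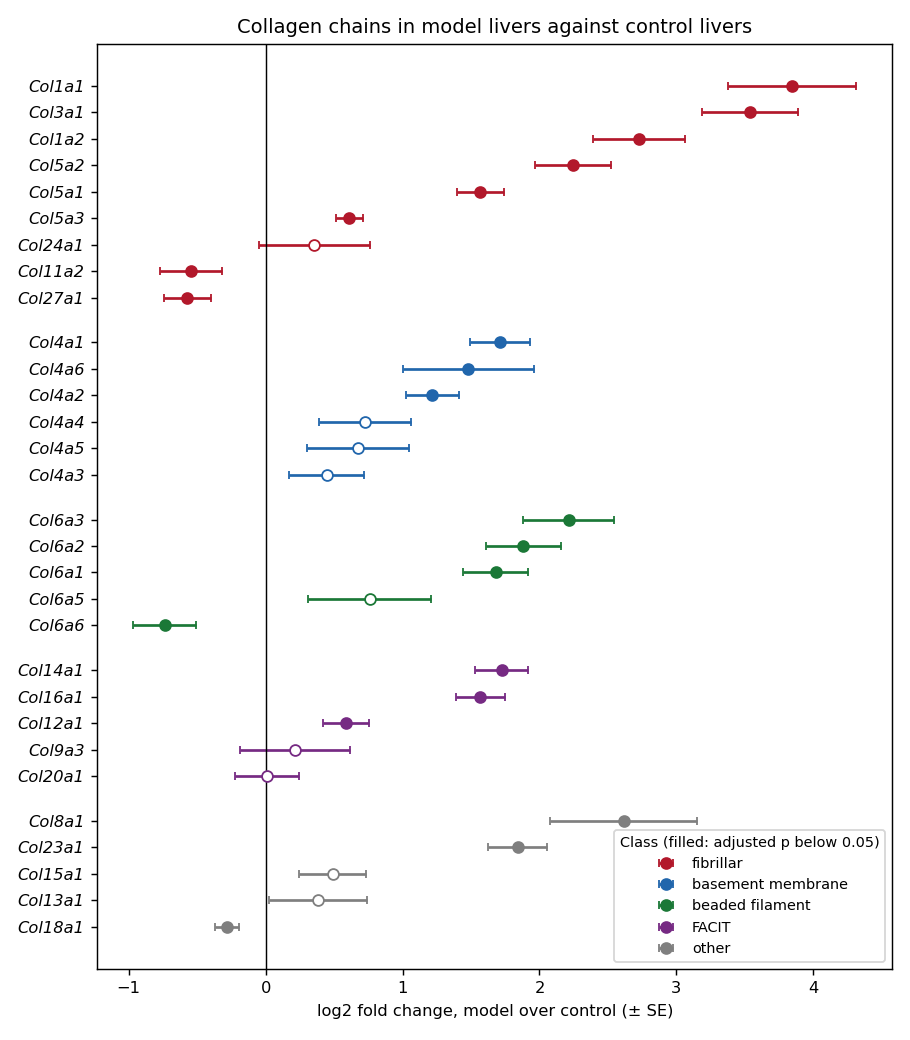
Log2 fold change of each tested chain, model over control, with its standard error, grouped and coloured by class; filled points passed the test at an adjusted p below 0.05. Col1a1 lies at 3.85 and Col3a1 at 3.54, and the 4 filled points left of 0 are Col11a2, Col27a1, Col6a6 and Col18a1.

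The fibrillar chains held the 3 largest fold changes. Of 9 tested chains 6 rose, namely Col1a1, Col3a1, Col1a2, Col5a2, Col5a1 and Col5a3, 2 fell and Col24a1 passed in neither direction. Col1a1, the alpha 1 chain of collagen I, the main fibril of scars (gene at chr11:94827050-94843868, plus strand, GRCm39), had 2.89 CPM in the lowest model mouse, 25.4 in the median and 48.0 in the highest, against 0.507, 1.59 and 3.65 CPM in control mice. Model mouse 10 was the lowest and the only model mouse within the range of the controls, and its value lay under that of control mouse 2. The log2 fold change was 3.85 (SE 0.47, adjusted p = 1.93e-07 by edgeR), or 14.4-fold. Its partner Col1a2, the alpha 2 chain of collagen I (chr6:4504814-4541544, plus strand), ran from 7.30 through a median of 33.4 to 57.4 CPM in model mice, against 2.10, 5.08 and 8.64 CPM in control mice, and again model mouse 10 alone lay below the highest control. It rose by 2.73 (SE 0.34, adjusted p = 2.5e-07). Col3a1, the single chain of collagen III, which builds the fine reticular fibres of soft organs (chr1:45350698-45388866, plus strand), had 15.0, 70.0 and 116 CPM as lowest, median and highest in model mice, against 3.04, 5.72 and 11.3 CPM in control mice. Here the groups did not overlap: even model mouse 10 was above control mouse 2, and the log2 fold change was 3.54 (SE 0.35, adjusted p = 8.85e-09).

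The collagen V chains, which set the start and the width of fibrils, rose by unequal amounts. Col5a2 lies tail to tail with Col3a1, 24.6 kb away on chromosome 1 and on the opposite strand. It had 1.17, 5.43 and 7.50 CPM in model mice and 0.660, 1.02 and 1.71 CPM in control mice, with model mouse 10 as the only overlap, and rose by 2.24 (SE 0.28, adjusted p = 1.62e-07). For Col5a1 the lowest model mouse lay above the highest control, and the log2 fold change was 1.57 (SE 0.17, adjusted p = 1.67e-08). Col5a3 moved less. It stood at 20.8, 26.5 and 33.5 CPM in model mice and 12.8, 18.4 and 21.1 CPM in control mice, with 16 of 18 model mice above every control, and rose by 0.61 (SE 0.10, adjusted p = 8.54e-06). Unlike the chains above, Col5a3 was not low in model mouse 10, which lay near the model median.

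The remaining fibrillar chains, known mainly from cartilage and bone, were not called higher. Col27a1, a chain of growth cartilage (chr4:63132241-63253228, plus strand), had 6.19, 9.08 and 12.9 CPM in model mice and 7.12, 13.5 and 20.1 CPM in control mice. It fell by 0.57 on the log2 scale (SE 0.17, adjusted p = 0.00526), although 16 of 18 model mice lay inside the range of the controls. Reads of an unnamed gene on the opposite strand could add to it, since 11.0% of its exon bases are shared. Col11a2, a cartilage collagen XI chain, had 0.148, 0.319 and 0.498 CPM in model mice and 0.252, 0.465 and 0.675 CPM in control mice. It fell by 0.55 (SE 0.23, adjusted p = 0.0383), with 5 of 18 model mice below all controls. The call was lost without control mouse 1, 2, 3 or 4, with adjusted p from 0.059 to 0.162 (edgeR). Col24a1, a fibrillar chain of bone, stood at 0.0273, 0.237 and 0.381 CPM in model mice and at 0.0629, 0.148 and 0.284 CPM in control mice. The groups overlapped widely (log2 fold change 0.36, SE 0.41, adjusted p = 0.464). Of the cartilage marker genes, Acan had 0 counts in every library, and of the 5 listed only Sox5 passed the filter, without being called.

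**Figure D2:**
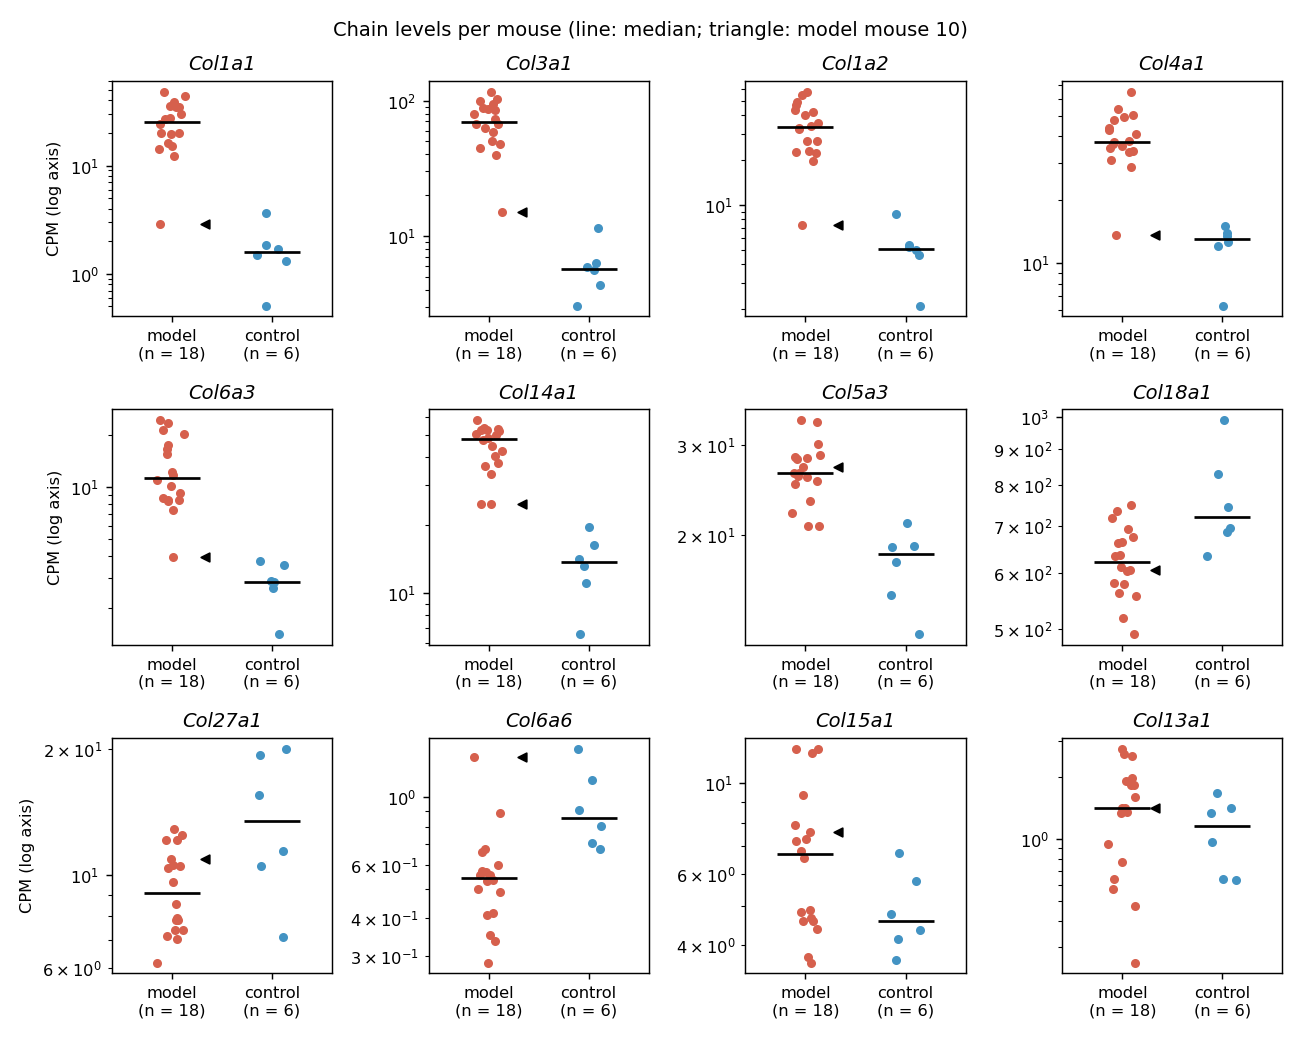
CPM of 12 chains in each mouse on log axes, model mice (n = 18) left of control mice (n = 6), with a line at each median and a triangle beside model mouse 10. Col3a1, Col6a3 and Col14a1 separate the groups, Col1a1, Col1a2 and Col4a1 do so except at model mouse 10, and Col27a1, Col15a1 and Col13a1 overlap.

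The promoters of Col3a1 and Col1a2 are printed from the RefSeq table because both chains rose strongly and followed Col1a1 closely over the model mice. Each runs from 250 bases before to 50 bases after the RefSeq start site on GRCm38.p6, a build other than that of the counts, in the direction of transcription. Capitals mark matches, on either strand, to any of 5 motifs. The TATA box was searched as TATAAA. The CCAAT box was searched as those letters. The GC box was searched as GGGCGG and the AP-1 site as TGACTCA. The SMAD box was searched as GTCTAGAC, and no motif contains another. The first covers chr1:45311288-45311587 (plus strand) and the second chr6:4505368-4505667 (plus strand).
Col3a1: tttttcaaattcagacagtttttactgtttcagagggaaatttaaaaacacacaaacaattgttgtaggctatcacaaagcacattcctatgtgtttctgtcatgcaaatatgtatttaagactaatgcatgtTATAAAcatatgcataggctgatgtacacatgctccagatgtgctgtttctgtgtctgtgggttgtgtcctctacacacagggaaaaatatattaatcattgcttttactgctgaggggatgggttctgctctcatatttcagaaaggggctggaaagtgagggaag
Col1a2: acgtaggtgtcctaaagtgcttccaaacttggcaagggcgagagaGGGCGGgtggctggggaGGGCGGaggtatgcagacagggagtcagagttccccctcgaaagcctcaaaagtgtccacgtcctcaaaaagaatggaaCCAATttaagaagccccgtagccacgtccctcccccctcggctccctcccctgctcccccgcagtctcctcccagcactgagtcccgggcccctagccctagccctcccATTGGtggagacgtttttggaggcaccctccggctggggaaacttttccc
The Col3a1 window held 1 TATA box, starting at -117 from the start site, and none of the other motifs. The Col1a2 window held a pair of CCAAT boxes, at -109 and 0, and a pair of GC boxes, at -205 and -188, and no TATA box. Among 32851 promoters of the same length, 13.6% held a TATA box, 37.4% a CCAAT box, 35.7% a GC box, 5.20% an AP-1 site and 0.213% a SMAD box. Among the 35 chains with an entry, 5 held a TATA box, 13 a CCAAT box, 22 a GC box, 1 (Col6a1) an AP-1 site and 0 a SMAD box. These matches are letters in a window and were not tested against the expression values.

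All 6 basement membrane chains were tested, and 3 rose: Col4a1, Col4a2 and Col4a6. Col4a1 and Col4a2 build the collagen IV network found under nearly every epithelium and endothelium. Col4a1 (chr8:11248423-11362826, minus strand, GRCm39) had 13.6, 37.8 and 65.2 CPM in model mice, against 6.28, 13.0 and 15.0 CPM in control mice. Model mouse 10 was the only model mouse under the highest control, and control mouse 6 lay far below the other controls. The log2 fold change was 1.71 (SE 0.22, adjusted p = 2.97e-07). Col4a2 (chr8:11362805-11499287, plus strand) had 7.08, 16.6 and 24.3 CPM in model mice and 3.65, 7.22 and 10.1 CPM in control mice, and rose by 1.22 (SE 0.20, adjusted p = 7.98e-06). Again 17 of 18 model mice were above every control. The genes share 22 exon bases on opposite strands, 0.29% of Col4a1.

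The collagen IV genes lie head to head in pairs, transcribed away from each other. The RefSeq starts of Col4a1 and Col4a2 are 21 bases apart and their promoter windows share 78 bases. The window of Col4a2, chr8:11312555-11312854 (plus strand, GRCm38.p6), is printed because it covers the starts of both genes; capitals mark the same motifs.
Col4a2: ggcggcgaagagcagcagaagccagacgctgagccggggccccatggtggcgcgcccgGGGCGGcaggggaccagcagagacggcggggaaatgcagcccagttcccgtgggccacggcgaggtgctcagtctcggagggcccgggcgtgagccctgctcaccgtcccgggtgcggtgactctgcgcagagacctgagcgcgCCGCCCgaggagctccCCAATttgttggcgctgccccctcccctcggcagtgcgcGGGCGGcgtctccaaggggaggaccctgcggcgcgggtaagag
It held 1 CCAAT box, at -32, and 3 GC boxes, at -192, -48 and 7. Col4a5 and Col4a6 are 1.3 kb apart on chromosome X. Col4a6, which joins Col4a5 in the basement membranes of smooth muscle and ducts, had 0.117, 0.417 and 1.36 CPM in model mice and 0.0314, 0.177 and 0.290 CPM in control mice. It rose by 1.48 (SE 0.48, adjusted p = 0.00955), with 10 of 18 model mice above all controls, and with the clock gene index as a covariate the log2 fold change was 1.34 (SE 0.84, adjusted p = 0.212, edgeR). Col4a5 spread more than its controls on either side, at 0.468, 1.51 and 4.17 CPM in model mice against 0.910, 1.18 and 1.49 CPM in control mice. Of the 18 model mice, 9 were above and 5 below all controls, and the test did not pass (log2 fold change 0.68, SE 0.37, adjusted p = 0.119). Col4a3 and Col4a4, 0.1 kb apart on chromosome 1, are the chains of the kidney filter. Col4a3 had 0.245, 0.462 and 0.835 CPM in model mice and 0.199, 0.360 and 0.639 CPM in control mice (log2 fold change 0.45, SE 0.27, adjusted p = 0.165), and C430014B12Rik on the opposite strand shares 19.6% of its exon bases. Col4a4 had 0.178, 0.456 and 0.978 CPM in model mice and 0.161, 0.316 and 0.470 CPM in control mice (log2 fold change 0.73, SE 0.34, adjusted p = 0.064). The groups overlapped for both, and Col4a4 passed without control mouse 1 or model mouse 7, 8, 11 or 14, with adjusted p from 0.0399 to 0.0478 (edgeR).

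Among the beaded filament chains, the 3 that form standard collagen VI, a microfilament around cells, rose together, and the chains that can take the place of alpha 3 did not. Col6a3, the longest chain (chr1:90693645-90771693, minus strand), had 3.97, 11.4 and 24.3 CPM in model mice and 1.42, 2.85 and 3.77 CPM in control mice. The groups did not overlap, and it rose by 2.21 (SE 0.33, adjusted p = 3.56e-06). Col6a1 (chr10:76544626-76562002, minus strand) had 4.17, 11.9 and 16.9 CPM in model mice and 1.93, 3.56 and 5.34 CPM in control mice, with model mouse 10 as the only overlap. Its log2 fold change was 1.68 (SE 0.24, adjusted p = 1.31e-06), and that of its neighbour Col6a2, 85.2 kb away, was 1.88 (SE 0.27, adjusted p = 1.85e-06). Col6a6 (chr9:105565008-105705359, minus strand) went the other way. It had 0.285, 0.543 and 1.36 CPM in model mice and 0.675, 0.857 and 1.45 CPM in control mice, with 15 of 18 model mice below every control. It fell by 0.74 (SE 0.23, adjusted p = 0.00705), and the highest model value was that of mouse 10, the mouse lowest for the standard chains. Col6a5, 27.9 kb from Col6a6 on the same strand, had 0.0674, 0.190 and 0.724 CPM in model mice and 0.0676, 0.162 and 0.248 CPM in control mice, with 7 model mice above all controls (log2 fold change 0.76, SE 0.45, adjusted p = 0.147).

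Of the 5 FACIT chains tested, 3 rose, and 2 of them without overlap. Col14a1, which binds the surface of collagen I fibrils (chr15:55171146-55384199, plus strand), had 24.7, 48.0 and 58.1 CPM in model mice and 6.59, 13.7 and 19.7 CPM in control mice. Every model mouse was above every control, and it rose by 1.72 (SE 0.19, adjusted p = 4.42e-08). Col16a1, a minor fibril-associated chain (chr4:129941633-129993076, plus strand), had 2.28, 3.56 and 5.04 CPM in model mice and 0.574, 1.16 and 1.99 CPM in control mice, likewise without overlap (log2 fold change 1.57, SE 0.18, adjusted p = 3.67e-08). Col12a1, the fibril-associated chain of tendon and ligament, rose by 0.58 (SE 0.17, adjusted p = 0.00412), with 12 of 18 model mice above all controls. Col9a3, a cartilage chain, had 0.0555, 0.178 and 0.524 CPM in model mice and 0.0965, 0.204 and 0.223 CPM in control mice, and passed in neither direction (log2 fold change 0.21, SE 0.40, adjusted p = 0.666). Col20a1 had 0.219, 0.427 and 0.611 CPM in model mice, inside the control range of 0.176 to 0.709 CPM around a median of 0.416 (log2 fold change 0.01, SE 0.23, adjusted p = 0.973). An adjoining gene on the same strand shares 4.61% of the exon bases of Col20a1.

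Of the remaining kinds, 5 of 12 chains were tested. Col8a1, a network-forming chain of vessel walls and the cornea (chr16:57444621-57575100, minus strand), had 0.111, 0.510 and 1.30 CPM in model mice and 0, 0.0820 and 0.176 CPM in control mice. All but model mouse 10 were above every control, and it rose by 2.62 (SE 0.54, adjusted p = 0.000154) from 18 control counts in all. Col23a1, a transmembrane collagen, was above every control in 18 of 18 model mice and rose by 1.84 (SE 0.22, adjusted p = 6.61e-08). Col13a1, another transmembrane collagen, known from cell contacts and the nerve-muscle junction, had 0.251, 1.42 and 2.75 CPM in model mice and 0.629, 1.15 and 1.67 CPM in control mice. Of the model mice 7 were above and 3 below all controls (log2 fold change 0.38, SE 0.36, adjusted p = 0.371). Col15a1, a basement membrane zone collagen known as a mark of portal fibroblasts, had 3.63, 6.69 and 12.2 CPM in model mice and 3.68, 4.58 and 6.76 CPM in control mice (log2 fold change 0.49, SE 0.25, adjusted p = 0.0883). It was above all controls in 9 of 18 model mice and did not pass the test.

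Col18a1, the chain whose end fragment is endostatin (chr10:76888012-77002382, minus strand), was the most abundant collagen transcript in every library. It had 492, 623 and 749 CPM in model mice and 635, 721 and 989 CPM in control mice, with 10 of 18 model mice below every control. It fell by 0.28 on the log2 scale (SE 0.09, adjusted p = 0.00673). The direction depended on the scaling, since with library totals alone the log2 fold change was 0.04 (adjusted p = 0.641). With TMM factors the hepatocyte markers were lower too: 5 of 5 were called lower in model livers, where 28.8% of all genes were. Their summed level was 52130 to 109500 CPM against 109000 to 172000 CPM in control livers. With library totals alone Alb (-0.56), Apoa1 (-0.51), Hnf4a (-0.60) and Serpina1a (-0.75) were still called lower, and Ttr (0.03) was not. The part of hepatocyte content in the fall of Col18a1 was not tested. The other falling chains passed with TMM factors and not with library totals alone, at log2 fold changes of -0.25 for Col27a1, -0.40 for Col6a6 and -0.22 for Col11a2. With the clock gene index as a covariate Col27a1 passed at -0.92 (adjusted p = 0.00745, edgeR), and Col6a6 at -0.40, Col18a1 at -0.21 and Col11a2 at 0.015 did not (adjusted p 0.445, 0.283 and 0.98). That fit leans on control mouse 6, and its errors were wider: the SE of Col6a6 was 0.394 with the covariate and 0.229 without.

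The 14 chains that failed the filter were scarce. Those with the most counts were Col25a1, Col8a2 and Col7a1, with 153, 99 and 78 counts over the model libraries and 32, 27 and 39 over the control libraries. Col26a1 had 0 counts in all 24 libraries, which allows at most 0.00311 CPM (3 counts over the pooled totals). Col2a1, the cartilage fibril chain, had 4 counts in model and 0 in control libraries, Col11a1 had 1 in model and 1 in control libraries, and Col19a1 had 2 in model and 0 in control libraries. The rest were Col6a4, Col9a1, Col9a2, Col10a1, Col17a1, Col22a1 and Col28a1, each with at most 33 counts in model and 5 in control libraries.

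Levels of different chains were compared per deposited gene length, in TPM, which carries no TMM factors. That length covers all exons of a gene and can differ from the length of its transcripts. The order of chains and the shares of classes are therefore approximate. On that scale Col18a1 held less of the collagen mix in model livers and every other class held more. Col18a1 averaged 225 ± 26.5 TPM in model livers and 210 ± 36.0 TPM in control livers (SD, n = 18 and n = 6). All other chains together summed to 107 ± 30.4 TPM in model livers and 26.0 ± 4.58 TPM in control livers. The share of Col18a1 in the summed TPM of all chains was thus 56.6 to 81.9% in model livers, around a median of 67.2%, and 87.0 to 91.3% in control livers, around a median of 88.4%. The ranges did not overlap, and model mouse 10 had the highest share of its group. Fibrillar chains took 15.2 ± 4.11% in model and 4.54 ± 0.914% in control livers, and basement membrane chains 6.27 ± 1.39% in model and 2.46 ± 0.637% in control livers. FACIT chains took 5.64 ± 0.882% in model and 2.05 ± 0.523% in control livers, and beaded filament chains 3.52 ± 1.11% in model and 1.14 ± 0.282% in control livers. With Col18a1 set aside, fibrillar chains held 47.2 ± 4.17% of the rest in model and 41.0 ± 6.60% in control livers, and FACIT chains 18.3 ± 4.03% in model and 18.2 ± 2.33% in control livers. The fibrillar ranges overlapped widely, at 37.3 to 53.75% in model and 34.6 to 52.9% in control livers. Basement membrane chains held 19.6 ± 1.8% in model and 22.2 ± 5.1% in control livers. Beaded filament chains held 10.8 ± 1.5% in model and 10.2 ± 1.7% in control livers. The remaining chains of other kinds held 4.09 ± 1.27% in model and 8.42 ± 0.885% in control livers.

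**Figure D3:**
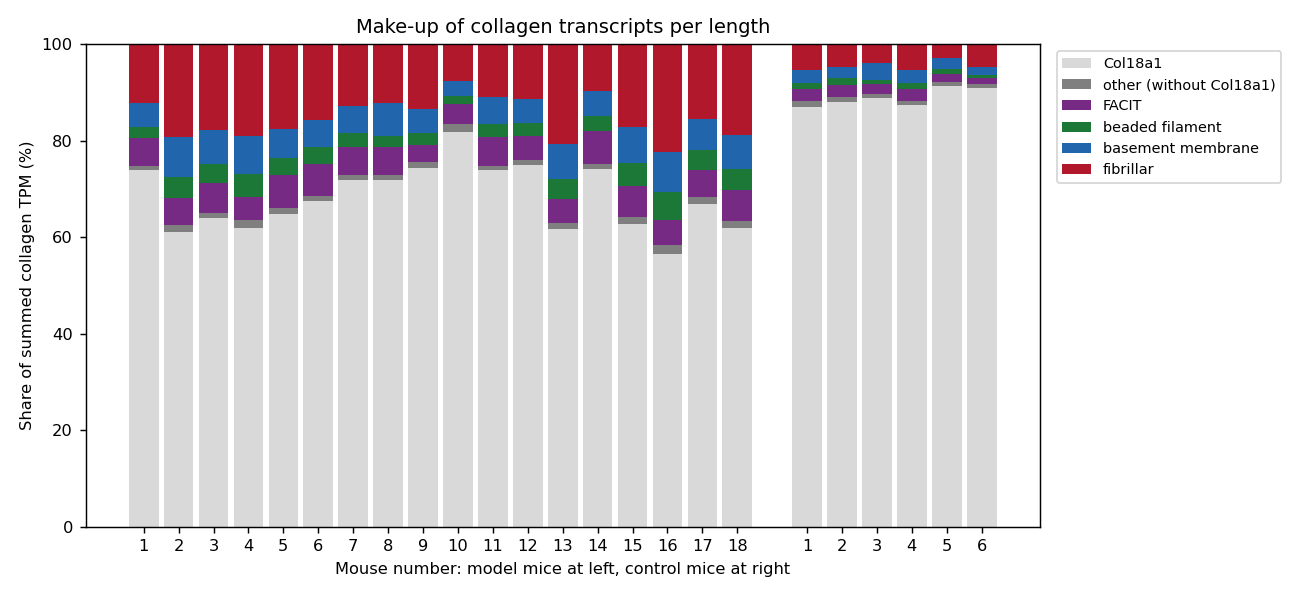
Share of each class in the summed TPM of all collagen chains, 1 bar per mouse, model mice at left and control mice at right, with Col18a1 apart from the other chains of its class. The fibrillar share runs from 7.67 to 22.3% in model mice and from 3.00 to 5.38% in control mice.

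The leading chain after Col18a1 was not the same in the groups. In model livers Col3a1 averaged 18.4 ± 7.38 TPM, Col14a1 16.1 ± 3.74, Col4a1 13.6 ± 4.43, Col1a1 10.1 ± 5.07 and Col5a3 9.88 ± 1.41 TPM, and these neighbours lay within each other's SD. In control livers Col5a3 averaged 4.99 ± 0.960 TPM, Col14a1 3.73 ± 1.22, Col4a1 3.17 ± 0.813, Col3a1 1.19 ± 0.524 and Col1a1 0.511 ± 0.288 TPM. Col3a1 there stood behind Col5a3, Col14a1, Col4a1, Col27a1, Col4a2, Col6a1 and Col15a1.

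Chains that share a molecule did not all change by the same amount. Ratios between chains were taken within each library as log2 of CPM, so that scaling cancels. For each of 6 ratios the group means were set against all 134596 ways to divide the mice (exact permutation test, two-sided, adjusted over the 6). The log2 ratio of Col1a1 to Col1a2 was -0.49 ± 0.26 in model and -1.62 ± 0.29 in control livers, a difference of 1.13 (SD, n = 18 and n = 6, adjusted exact permutation p = 4.46e-05), and 17 of 18 model mice were above all controls. That of Col4a1 to Col4a2 was 1.25 ± 0.16 in model and 0.80 ± 0.20 in control livers, higher by 0.45 (adjusted exact p = 0.000119), although these genes start almost at the same place. No difference was shown for collagen VI, where Col6a1 to Col6a2 was 0.71 ± 0.20 in model and 0.83 ± 0.24 in control livers (difference -0.12, adjusted exact p = 0.226). Col5a1 to Col5a2 was 0.68 ± 0.41 in model and 1.24 ± 0.56 in control livers, a difference of -0.55 (adjusted exact p = 0.0225), a call that was lost without control mouse 1, 4 or 5 (adjusted exact p 0.0521, 0.0546 and 0.0825).

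The widest difference among the 6 ratios was between the scar and basement membrane chains. The log2 ratio of Col1a1 to Col4a1 was -0.78 ± 0.53 in model and -2.93 ± 0.65 in control livers, higher by 2.15 (adjusted exact permutation p = 4.46e-05), with 17 of 18 model mice above all controls. The exception was model mouse 10, at -2.22, against -1.72 for control mouse 2. The ratio of Col1a1 to Col3a1 was -1.55 ± 0.27 in model and -1.86 ± 0.45 in control livers, and the difference of 0.31 did not pass (adjusted exact p = 0.0574). Without control mouse 5 it did, at 0.44 (adjusted exact p = 0.0114), and likewise without control mouse 2 or model mouse 10, at 0.36 each (adjusted exact p 0.044 and 0.0138).

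**Figure D4:**
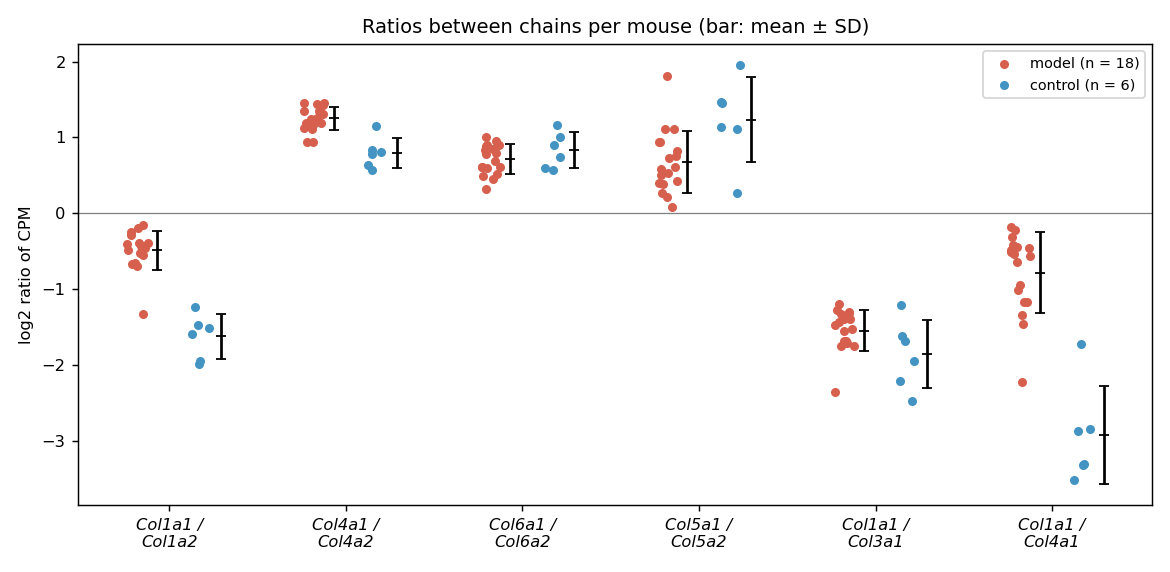
Log2 ratio of CPM between pairs of chains in each mouse, model mice left of control mice, with the mean and SD as bars. Col1a1 to Col1a2, Col4a1 to Col4a2 and Col1a1 to Col4a1 are higher in model mice by 1.13, 0.45 and 2.15, and Col6a1 to Col6a2 overlaps.

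The model mice differed from each other in collagen more than in most genes. The coefficient of variation over the 18 model mice had a median of 37.1% over the 30 tested chains and 18.4% over all genes tested. Part of it is counting error for scarce chains: Col24a1 varied by 53.0%, and its counts alone would give 34.4%. Among well-counted chains Col1a1 varied by 46.3% (2.96% from counting) and Col6a3 by 45.6% (4.12%), whereas Col18a1 varied by 11.6% (0.608%) and Col5a3 by 13.5% (2.94%). The range of Col1a1 was 16.6-fold and that of Col18a1 1.52-fold. Much of the spread ran along a common order of mice: model mouse 10 was the lowest for 13 of the 17 chains that rose, and model mouse 2 was the highest for 8 of them. Without model mouse 10 and control mouse 6 the same 17 chains were higher and the same 4 lower.

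**Figure D5:**
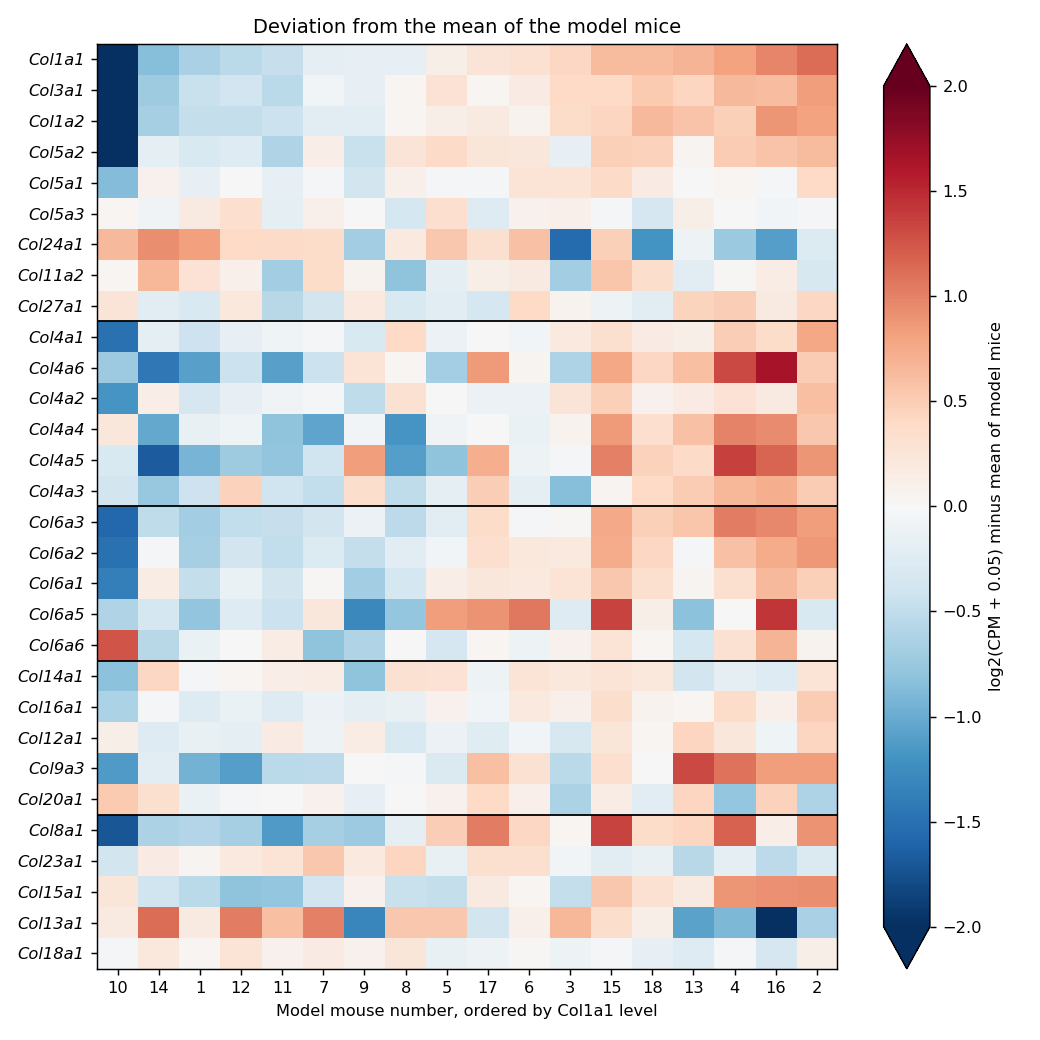
Deviation of each tested chain from its mean over the 18 model mice, as log2(CPM + 0.05), with mice in order of Col1a1 and chains grouped by class in the order fibrillar, basement membrane, beaded filament, FACIT and other. Most collagen I, III, IV and VI chains follow the order of Col1a1, and Col5a3, Col14a1, Col23a1 and Col18a1 do not.

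Over the 18 model mice, 8 relations of Col1a1 with another chain were tested on log2 CPM with 100000 permutations, adjusted over the 8. Col1a2 followed Col1a1 closely (Pearson r = 0.99, adjusted permutation p = 2.67e-05; Spearman rho = 0.98, adjusted p = 4e-05), and so did Col3a1 (r = 0.99, adjusted permutation p = 2.67e-05; rho = 0.98, adjusted p = 4e-05). These rest on a raw p of 1e-05, the smallest that the permutations can give. Col5a2 (r = 0.92, rho = 0.83), Col4a1 (r = 0.92, rho = 0.85) and Col6a1 (r = 0.87, rho = 0.81) passed too, with adjusted permutation p for r from 2.67e-05 to 4.8e-05 and for rho from 8e-05 to 0.000176. Without the mice farthest from the median of Col1a1, numbers 10 and 14, these r were 0.79, 0.79 and 0.84 and those of Col1a2 and Col3a1 0.98 and 0.97, all past the threshold. Col1a1 also followed the TMM factor of the library (r = 0.68, rho = 0.76, adjusted permutation p = 0.00227 and 0.00168 over 14 measures). With library totals alone, r was 0.99 for Col1a2 and Col3a1, 0.93 for Col5a2, 0.94 for Col4a1 and 0.89 for Col6a1. The part of the TMM factor was not tested further.

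Among the tested relations, those of Col14a1, Col15a1 and Col18a1 with Col1a1 were the weaker ones over all model mice. Col14a1, higher in every model mouse than in any control, gave no relation with Col1a1 (r = 0.37, adjusted permutation p = 0.143; rho = 0.00, adjusted p = 0.994), and it was low in mice 9 and 10. Col15a1 had r = 0.44 (adjusted permutation p = 0.0768) and rho = 0.69 (adjusted p = 0.00259), and without mice 10 and 14 its r was 0.88 (adjusted p = 8e-05), so its r depended on those mice. Col18a1 ran against Col1a1 by rank (rho = -0.55, adjusted permutation p = 0.0225) and not by r (r = -0.36, adjusted p = 0.143), and r was -0.61 without mice 10 and 14 (adjusted p = 0.0152). The relation depended on the scaling, since with library totals alone r was -0.04 and rho -0.18 (adjusted permutation p = 0.867 and 0.547).

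Markers of cell types that could bring collagen transcripts differed between the groups to unequal degrees. Of all genes tested, 31.2% were called higher and 28.8% lower, for comparison with the counts below. Of 10 stellate cell markers 8 were higher in model livers and 0 lower, and their summed level was 118 to 275 CPM in model and 70.0 to 148 CPM in control livers. Of 7 portal fibroblast markers 4 were tested and all 4 were higher (sum 6.47 to 32.8 CPM in model and 4.56 to 7.37 CPM in control livers). Of 6 sinusoidal endothelial markers 6 were higher, and of 4 vascular endothelial markers 3 (sums 58.7 to 191 CPM in model and 36.8 to 70.3 CPM in control, and 10.8 to 50.3 CPM in model and 11.6 to 20.4 CPM in control livers). The myofibroblast and smooth muscle list passed for 0 of 6 genes by edgeR. Acta2, its most abundant gene and a classical myofibroblast mark, had 0.853, 2.06 and 6.54 CPM in model and 1.10, 1.24 and 2.17 CPM in control livers. Its log2 fold change was 0.94 (SE 0.44, adjusted p = 0.0647 by edgeR). With library totals alone it passed at 1.28 (adjusted p = 0.0156, edgeR). Macrophage markers were higher for 5 of 5 genes (sum 62.6 to 289 CPM in model and 14.3 to 34.4 CPM in control livers), and 1 of 5 cholangiocyte markers, Spp1, was higher. Of 3 mesothelial markers tested 2, the scarce Msln and Upk3b, were lower, and Krt14 was near 0 throughout. Wt1 leaned the other way and was not called (log2 fold change 0.93, adjusted p = 0.0612 by edgeR). With the clock gene index as a covariate Msln (-0.86) and Upk3b (-1.52) did not pass (adjusted p = 0.541 and 0.156, edgeR).

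Within the model mice, the summed stellate markers did not follow Col1a1 (r = 0.02, rho = -0.24, adjusted permutation p = 0.994 and 0.436, over 14 measures), whereas portal fibroblast markers (r = 0.86, rho = 0.87), macrophage markers (r = 0.88, rho = 0.86) and cholangiocyte markers (r = 0.82, rho = 0.88) did, with adjusted permutation p for r of 4.67e-05 in each case. Hepatocyte markers ran against it (r = -0.84, rho = -0.81, adjusted permutation p = 0.000105 and 0.00035). Model mouse 10 had the lowest sums of macrophage and portal fibroblast markers and the highest sum of hepatocyte markers among the 18. Without mice 10 and 14 the r were 0.89 for portal fibroblast, 0.81 for macrophage, 0.86 for cholangiocyte and -0.72 for hepatocyte markers. The sums lean on a few genes: Spp1 made up 93.6% of the cholangiocyte sum, Alb 83.7% of the hepatocyte sum and Dpt 50.45% of the portal fibroblast sum. The largest part of the stellate sum was Ecm1, at 35.4%. Not every hepatocyte marker ran against Col1a1: Apoa1 had r = 0.30 and rho = 0.41, and Serpina1a r = -0.31 and rho = -0.28 (adjusted permutation p for r 0.369 each, over 49 genes). Of the stellate list, Pdgfrb alone did follow Col1a1 (r = 0.91, rho = 0.89, adjusted permutation p = 7e-05 and 0.000122). The stellate sum therefore does not speak for every stellate marker. Thy1 of the portal fibroblast list did not pass (r = 0.552, rho = 0.255, adjusted permutation p = 0.0696 and 0.429), whereas Entpd2, Cd34 and Dpt did. Among the macrophage markers Adgre1 did not pass (r = 0.313, rho = 0.251, adjusted permutation p = 0.369 and 0.429), whereas Cd68, Csf1r, Lgals3 and Cd14 did. Without mice 10 and 14 Csf1r did not pass by r (r = 0.49, adjusted permutation p = 0.143). The same held for Ttr of the hepatocyte list (r = -0.49, adjusted permutation p = 0.145), which had passed over all 18 mice (r = -0.55, adjusted permutation p = 0.0407). The part of cell make-up in the chain levels was not tested.

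Genes that modify, export, trim, link and bind collagen changed in both directions. Of 39 such genes 33 were tested, 16 rose and 8 fell, against the shares of 31.2% and 28.8% over all genes. Crosslinking enzymes rose for 4 of 5 genes. Lox, a lysyl oxidase that links collagen fibrils, had 0.0833, 0.682 and 1.69 CPM in model mice and 0.0338, 0.148 and 0.264 CPM in control mice, and rose by 2.40 (SE 0.51, adjusted p = 0.000209). Loxl1, the most abundant of them per length, rose by 1.99 (SE 0.42, adjusted p = 0.000246), and Loxl2 and Loxl3 rose by 2.01 and 1.56, whereas Loxl4 did not pass (log2 fold change 0.13, adjusted p = 0.664) unless the clock gene index was a covariate (1.77, adjusted p = 0.00083, edgeR). Of the genes for propeptide removal 4 of 5 rose, led by Adamts14, a procollagen N-proteinase (0.797, 1.40 and 2.73 CPM in model and 0.248, 0.350 and 0.604 CPM in control mice, log2 fold change 2.04, SE 0.30, adjusted p = 2.01e-06). Bmp1, the procollagen C-proteinase, was the exception. It had 63.3, 71.5 and 94.2 CPM in model and 122, 132 and 163 CPM in control mice, without overlap, and fell by 0.90 (SE 0.07, adjusted p = 2.03e-10).

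Chaperone and export genes divided likewise. Serpinh1, the collagen chaperone HSP47, rose by 2.01 (SE 0.23, adjusted p = 6.97e-08), and Creb3l1, a transcription factor of collagen-secreting cells, had 0.694, 2.26 and 3.63 CPM in model and 0.320, 0.479 and 0.692 CPM in control mice and rose by 2.19 (SE 0.24, adjusted p = 2.7e-08). Mia3, which loads procollagen for export and is widely expressed, fell by 0.66 (SE 0.10, adjusted p = 2.46e-06). Of 12 tested genes for proline and lysine hydroxylation 3 rose (P3h3, Plod2, Crtap) and 4 fell (P3h1, Ppib, P4ha2, Plod3). P3h1, a prolyl 3-hydroxylase, had 9.47, 10.8 and 13.0 CPM in model and 16.4, 19.5 and 24.4 CPM in control mice and fell by 0.85 (SE 0.07, adjusted p = 1.38e-10). Ppib, the most abundant of this list per length (mean of 46.9 TPM over all libraries), fell by 0.49 (SE 0.08, adjusted p = 3.08e-06). Among 7 tested receptors, Mrc2, Ddr2 and Ddr1 rose by 1.81, 1.11 and 1.11. Itga2, an integrin chain for collagen, had 0.0833, 0.439 and 0.894 CPM in model and 0.777, 1.18 and 2.06 CPM in control mice and fell by 1.48 (SE 0.30, adjusted p = 0.000138). Itgb1, the shared integrin chain and the most abundant receptor per length, fell by 0.14 (SE 0.05, adjusted p = 0.0233) and was higher by 0.19 with library totals alone (adjusted p = 0.0107, edgeR). With library totals alone Ppib, P4ha2 and Plod3 did not pass either, while Bmp1, P3h1, Mia3 and Itga2 did. With the clock gene index as a covariate Crtap (log2 fold change 0.56), Ddr1 (0.96), Itga2 (-1.05) and Itgb1 (-0.13) did not pass, with adjusted p of 0.12, 0.354, 0.126 and 0.258 (edgeR).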

How the data were processed

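RNA from liver of 24 mice (18 model, 6 control) was sequenced after oligo(dT) capture, per the labels' protocols. The deposited values are raw read counts per Ensembl gene; gene length, another unit, is a deposited whole number of bases, per the file headers. The build was GRCm39, per the submitters' processing notes. Which aligner, counter and strand setting were used is not given in the sources used here. Reads of overlapping genes cannot be told apart. Besides Col27a1 and Col4a3, a gene on the opposite strand shares 27.65% of the exon bases of Col14a1, 22.29% of Col13a1 and 19.82% of Col12a1. For Col20a1 the share is 17.66%, for Col15a1 14.46%, for Col1a2 12.37% and for Col9a3 12.04%. Those opposite genes had at most 6 counts in any library. No molecular identifiers are named, and floors (3 counts) cover counting error only.

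Symbols matched 51498 of 78298 gene IDs, which held 99.6% of counts, and each of the 44 chains had its own ID. Coordinates are those of the deposited table, 1-based, over all exons of a gene. Promoters and their coordinates come from RefSeq on GRCm38.p6.

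All genes were fitted with edgeR 4.0.16 in R 4.3.3 (quasi-likelihood F test, robust dispersion, TMM factors, default expression filter, group alone), with Benjamini-Hochberg adjustment over 17456 genes; the test was checked on simulated data. SE is the absolute log2 fold change over the square root of F. TPM used deposited lengths. Ratios and correlations used log2 CPM with a prior count of 2. Over 168 pairs within groups no libraries were alike within sampling noise (smallest chi-square per degree of freedom 18.3). Alternatives used DESeq2 1.42.0, limma 3.58.1, other scalings, filters and thresholds, a clock gene covariate and left-out libraries. Further steps ran in Python 3.11.15 with scipy 1.17.1, numpy 2.4.6, matplotlib 3.10.9 and pandas 2.3.3.

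The members, classes, marker and processing lists were chosen with earlier results of these data known. Every tested chain is named. Lowest, median and highest values are given for the 2 chains of highest mean TPM in each class, the 6 called chains of largest change and each tested chain not called higher, and, of the processing genes, for the 3 highest and 3 lowest called fold changes. Levels per length and the other processing genes and markers named were added after their values were seen.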

Additional observations from a re-analysis of the deposited data

Results flagged for a closer look

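Control mice were searched for a value that lay far from the others of its group, as the gap to the nearest neighbour over the whole range of the 6 mice on a log2 scale. Over the 30 tested chains and 6 ratios, 36 groups in all, 4 passed Dixon's 95% limit, where chance flags about 1 in 20 groups. Col4a1, a chain of the common basement membrane network, was lowest in control mouse 6 at 6.28 CPM, with the other controls between 12.1 and 15.0 CPM (gap over range 0.755). Col6a3, the longest collagen VI chain, was lowest in the same mouse at 1.42 CPM, with the others between 2.64 and 3.77 CPM (0.632). Col4a6 was lowest in control mouse 5 at 0.0314 CPM, with the others between 0.169 and 0.290 CPM (0.693), which is below the 0.078 CPM that 3 counts stand for in that library. The log2 ratio of Col1a1 to Col4a1 was highest in control mouse 2 at -1.72, with the others between -3.51 and -2.85 (0.63). The group of 18 model mice was not examined this way.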

How the results depend on the processing

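The count of 17 chains higher in model livers stayed within 14 to 22 under all alternatives and was 17 or 18 with any library left out. Upper-quartile factors added Col15a1 and Col4a4, and library totals alone added Col4a3, Col4a5 and Col6a5 to these. With the clock covariate, which followed the group apart from control mouse 6, Col4a6 did not pass. Against control mouse 6 alone, where that arm is 1 mouse assumed to vary like the model mice, Col4a6, Col5a3 and Col8a1 did not pass at log2 fold changes of 1.53, 0.50 and 3.04. In the 12-library fits Col12a1 did not pass at 0.64 with the block and 0.58 without, and Col4a6 was not tested. The filter of 1 CPM left Col23a1, Col4a6 and Col8a1 untested. The count of 4 lower chains varied more: 0 with library totals alone or a 2-fold minimum, 2 with at least 1 CPM in 6 libraries (fewer chains tested), 1 with the clock index as a covariate, 1 with control mouse 6 alone against the model mice (fewer samples; chosen after seeing the data), and 3 or 4 with a library left out. Library totals alone moved the median of all genes to a log2 fold change of 0.34 and upper-quartile factors to 0.11. Col18a1 turned to 0.043 with library totals, and Col11a2 to 0.015 with the clock covariate and 0.039 against control mouse 6 alone; beyond these, the cause was not tested. The count of 24 processing genes was 15 with a 2-fold minimum or against control mouse 6 alone, and 23 to 27 with a library left out.

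Replicate numbers did not pair the mice (correlation of same-numbered deviations -0.293 to 0.067). With the number as a replicate block over 12 libraries, 16 chains were higher and 1 lower, and without the block in those libraries 16 and 3. Blocked ratio differences were 1.26 for Col1a1 to Col1a2, 0.48 for Col4a1 to Col4a2 and 2.36 for Col1a1 to Col4a1 (adjusted exact p = 0.0625 each, where the smallest possible raw p is 0.0313), and -0.64 for Col5a1 to Col5a2 (adjusted exact p = 0.141).

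Ratios ranged with a library left out from 1.06 to 1.21 (Col1a1 to Col1a2), 0.41 to 0.53 (Col4a1 to Col4a2), -0.17 to -0.05 (Col6a1 to Col6a2), -0.75 to -0.41 (Col5a1 to Col5a2), 0.19 to 0.44 (Col1a1 to Col3a1) and 2.03 to 2.39 (Col1a1 to Col4a1). Col1a1 to Col3a1 passed at 0.34 with a prior count of 0.5 and at 0.33 on TPM. Correlations with Col1a1 ranged from 0.37 to 0.86 for Col15a1 and -0.65 to -0.27 for Col18a1, the extremes 0.86 and -0.65 both without model mouse 10 and past the threshold, and from -0.13 to 0.46 for Col14a1. Col15a1 passed at 0.52 with library totals, and at 0.88 without mice 10 and 14, as did Col18a1 at -0.61. Depth limits the scarce chains: 3 counts are 0.0514 to 0.0949 CPM per library.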

Other observations

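Single marker genes give a finer view of the order of the model mice than their sums. Among the stellate cell markers, Pdgfrb, the receptor that marks activated stellate cells, followed Col1a1 over the 18 model mice (Pearson r = 0.91, Spearman rho = 0.89, adjusted permutation p = 7e-05 and 0.000122 over 49 genes), whereas Lrat, which stores vitamin A in quiescent stellate cells, had r = -0.11 and rho = -0.38 (adjusted permutation p = 0.743 and 0.22) and Reln had r = -0.12 and rho = -0.29 (0.727 and 0.413). Apart from Pdgfrb, no listed stellate cell marker passed by r or rho. Their r ran from -0.34 for Hgf to 0.58 for Rgs5 (adjusted permutation p = 0.342 and 0.0619). Acta2 had r = 0.25 and rho = 0.12 (adjusted permutation p = 0.536 and 0.682). Krt19, a keratin of bile ducts that was not called between the groups, followed Col1a1 within the model mice (r = 0.75, rho = 0.90, adjusted permutation p = 0.000147 and 9.8e-05), as did Krt7 and Epcam. Without model mice 10 and 14 the r were 0.90 for Pdgfrb and 0.88 for Krt19. These genes were picked from the table after their values were seen.

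Over all 29 other tested chains, some that showed no call between the groups still followed Col1a1 across the model mice. Col9a3, a cartilage chain that is scarce in liver, had r = 0.75 and rho = 0.82 (adjusted permutation p = 0.000203 and 0.000348 over 29 chains), and Col4a5 had r = 0.58 and rho = 0.77 (adjusted permutation p = 0.013 and 0.000712). Col8a1 and Col16a1, which rose, had r = 0.82 and 0.87. Col13a1 and Col24a1 ran the other way, with rho of -0.63 and -0.71 (adjusted permutation p = 0.01 and 0.00311) and r of -0.44 and -0.54 (0.111 and 0.0325). Col24a1 and Col9a3 had only 152 and 168 counts over the model libraries. Their lowest model values, 0.0273 and 0.0555 CPM, stand for fewer than 3 counts, so their order of mice is uncertain. Col23a1, which was higher in every model mouse than in any control, had r = -0.19 and rho = -0.48 (adjusted permutation p = 0.492 and 0.0612) and r = -0.72 without mice 10 and 14.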
